A study of Mus musculus with 9 samples.

Results

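The genes of the mouse mitochondrial genome were described in RNA-seq counts from regenerating muscle. They were chosen by their symbols: every gene in the count table whose name starts with mt- was taken, which gave 37 genes of 54532. The set holds 13 protein genes, 2 rRNAs (mt-Rnr1 and mt-Rnr2) and 22 tRNAs, which is the known gene content of the genome. The series holds 9 libraries in 3 groups of 3. Young PBS mice (4 months old) and old PBS mice (24 months old) received the vehicle, and old rMETRNL mice (24 months old) received recombinant Meteorin-like, a secreted protein, in 3 injections after injury of the tibialis anterior with BaCl2, a salt that kills muscle fibres. The labels give no strain or sex, the study's methods name C57/BL6J mice, and no allele or transgene is named for any group, so all 3 groups share the injury and differ in age or treatment. The labels call the material a cell suspension of damaged muscle 4 days after injury, while the study's text describes RNA from muscle 8 days after injury, so the tissue state at sampling is not settled by the sources. Old PBS replicates are numbered 2 to 4, and those of the other groups 1 to 3. Nothing says whether each library came from 1 animal, so p-values measure the spread between these libraries, which may be technical.

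The mitochondrial genome is a small circle of DNA present in many copies per cell. Its protein genes encode core subunits of the respiratory chain: 7 genes of complex I (mt-Nd1 to mt-Nd6 and mt-Nd4l, the NADH dehydrogenase), mt-Cytb of complex III, 3 genes of complex IV (mt-Co1 to mt-Co3, the cytochrome c oxidase) and 2 of complex V (mt-Atp6 and mt-Atp8, the ATP synthase). Both strands are copied as long transcripts that are cut at the tRNAs between the other genes, and the nuclear genome supplies the polymerase, its factors and every other subunit. Skeletal muscle fibres are rich in mitochondria, so these transcripts make up a large part of muscle RNA.

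Total counts ran from 16238700 to 22522560 per library, and a count of 3 corresponded to 0.131 to 0.202 CPM, the counts scaled to a common library size. All 10 marker genes of mature muscle fibres were counted in every group. Brain and liver markers stood apart in the old PBS libraries: for all 6 brain genes and all 5 liver genes, the lowest old PBS value exceeded the highest value of the other groups. The summed brain genes reached 79.4 to 273 CPM in old PBS against 10.8 to 16.5 in young PBS and 13.3 to 15.4 in old rMETRNL, with Mobp and Snap25 at 0 counts outside old PBS. The summed liver genes reached 8.11 to 78.5 CPM in old PBS and at most 0.161 elsewhere, with Apoa1, Ttr and Fgb at 0 counts outside old PBS. The part of this RNA in the mitochondrial counts was not tested, and since it is in all 3 old PBS libraries it cannot be told apart from the group.

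The sequences that matter most for reading these counts are pairs of a mitochondrial gene and its nuclear copy, because a read that matches both cannot be placed by its sequence. In the GRCm38 annotation used here, a row of unprocessed pseudogenes on chromosome 1 (minus strand, chr1:24611535-24616197) repeats the stretch of the mitochondrial genome from mt-Co1 to mt-Nd4. On chromosome 2, Gm13340 spans all 1545 bases of mt-Co1 with 37 differences, and Gm13341 repeats part of mt-Co2. The pairs shown here are with the chromosome 1 copies. The first 60 bases of mt-Nd3 (chrM:9459-9518, plus strand) and of its copy Gm28438 (chr1:24613060-24613119, minus strand) are shown with the single base that differs over the whole gene in capitals. From 1 at the gene's first base, the substitution from the mitochondrial gene to the copy is T3C.
mt-Nd3: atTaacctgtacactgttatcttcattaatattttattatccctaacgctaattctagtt
Gm28438: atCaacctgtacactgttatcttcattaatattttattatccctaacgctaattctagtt
The chromosome 1 copy of mt-Co1, Gm29216, covers only the gene's bases 1054 to 1545, and its first 60 bases (chr1:24616138-24616197, minus strand) are set against bases 1054 to 1113 of mt-Co1 (chrM:6381-6440, plus strand). All 6 differences lie in this window and are in capitals: T1056A, C1057T, A1059G, A1060G, C1062A and A1066T.
mt-Co1: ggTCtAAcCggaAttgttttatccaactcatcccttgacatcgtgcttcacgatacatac
Gm29216: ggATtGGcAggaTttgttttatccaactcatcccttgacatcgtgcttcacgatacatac
For mt-Co2 and its chromosome 1 copy Gm28661 all 681 bases are the same, and the first 60 (chrM:7013-7072, plus strand, and chr1:24615506-24615565, minus strand) carry no capitals.
mt-Co2: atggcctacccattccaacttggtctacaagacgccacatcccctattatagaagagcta
Gm28661: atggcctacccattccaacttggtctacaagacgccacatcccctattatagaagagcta

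The protein genes fell into 2 sets of very different level. Levels between genes are compared here as CPM per kilobase of gene, averaged over the 9 libraries. mt-Co1, the catalytic subunit of cytochrome c oxidase, was the most abundant at 19746, followed by mt-Cytb, the cytochrome b of complex III, at 11863 and mt-Nd1 at 9887. mt-Nd2 at 5501, mt-Nd5 at 5103, mt-Nd6 at 4529 and mt-Nd4 at 4343 came next. The order from mt-Co1 to mt-Cytb, mt-Nd1 and mt-Nd2 was the same in 9 of 9 libraries, whereas mt-Nd2 was above mt-Nd5 in only 5 of 9, so those neighbours did not differ beyond their spread. mt-Nd5 was above mt-Nd6 in 8 of 9 libraries and mt-Nd6 above mt-Nd4 in 7 of 9. mt-Co1 stood 1.67 ± 0.0489 times above mt-Cytb (SD over 9 libraries).

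The other 6 protein genes were listed far lower. mt-Co3 was at 91.8 CPM per kilobase, mt-Nd3 at 81.5, mt-Co2 at 80.5, mt-Atp6 at 77.0, mt-Nd4l at 48.6 and mt-Atp8 at 14.5. In every library the lowest of the 7 abundant genes exceeded the highest of these 6, by 14.7-fold in old rMETRNL 1 and by 39.0- to 53.6-fold in the other 8 libraries. Together the 6 genes held 0.233% to 0.492% of the protein gene counts. They are neighbours on the genome, from mt-Co2 to mt-Nd4l, with mt-Co1 before them and mt-Nd4 after them.

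Of these 6 genes, 5 are repeated almost whole in nuclear transcripts. Of the 50-base windows of each gene, 100% in mt-Co2, 99.9% in mt-Co3, 99.5% in mt-Atp6, 98.8% in mt-Nd4l and 98.0% in mt-Nd3 also occurred in a nuclear transcript of the annotation. The shares were 62.2% in mt-Nd4 and 51.1% in mt-Co1, which flank the stretch, 8.19% in mt-Nd2 and 7.61% in mt-Nd5, and 0% in mt-Nd1, mt-Nd6 and mt-Cytb. In mt-Co1, 430 windows occurred in Gm29216 on chromosome 1 and 411 in Gm13340 on chromosome 2. mt-Atp8, the lowest of all, shared none with an annotated nuclear transcript, although it lies between mt-Co2 and mt-Atp6 and its last 43 bases overlap mt-Atp6. The genome outside annotated transcripts was not analysed here. How reads with more than 1 match were treated is not given in the sources used here, and its part in the low values was not tested, so the levels of these 6 genes are uncertain. Where only windows absent from nuclear transcripts were used as the length, an alternative chosen after seeing the data, mt-Nd4 rose from 0.366 to 0.962 of the level of mt-Cytb and mt-Co1 from 1.66 to 3.37 times.

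**Figure D1:**
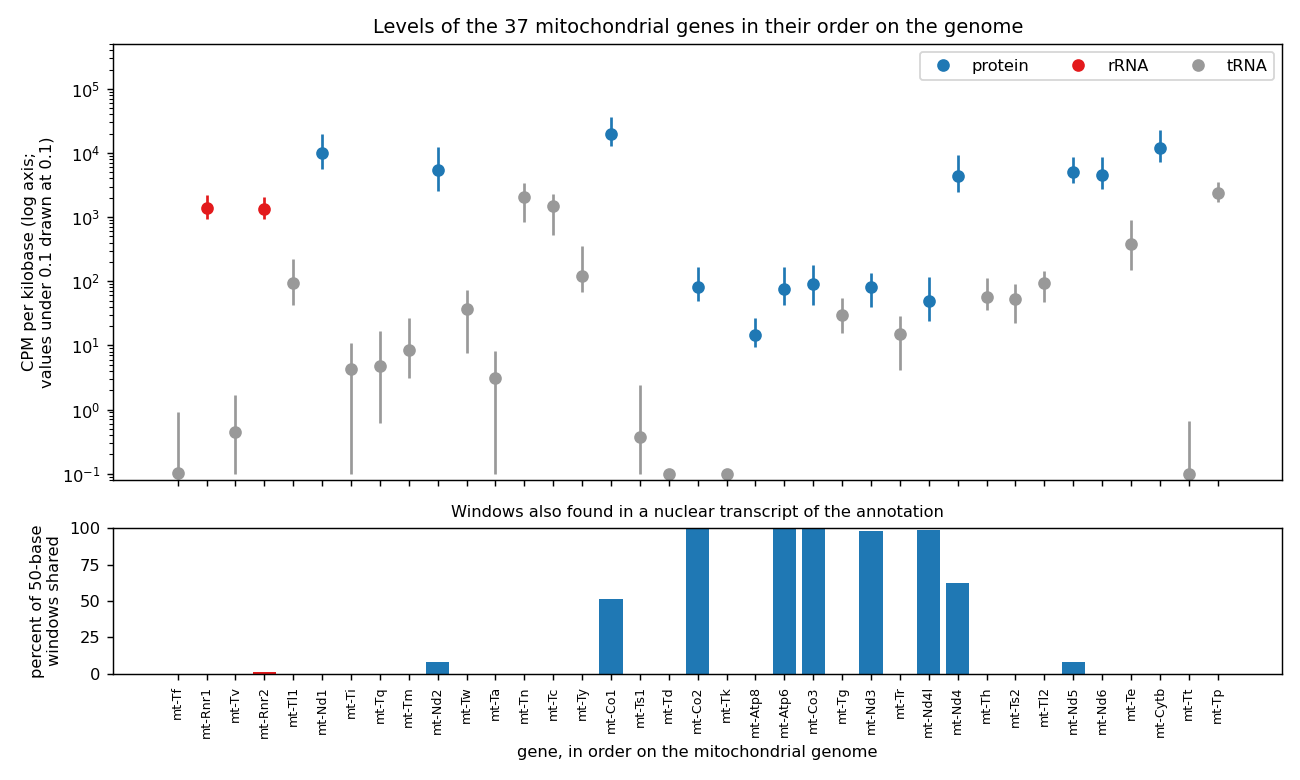
Upper panel: CPM per kilobase (log axis) of the 37 mitochondrial genes in genome order, with points for the mean and bars for the lowest and highest of 9 libraries, by kind of gene. Lower panel: percent of each gene's 50-base windows that also occur in an annotated nuclear transcript. The 6 protein genes from mt-Co2 to mt-Nd4l lie between 14.5 and 91.8 on average, and the other 7 between 4343 and 19746.

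The chromosome 1 copies of mt-Atp6, mt-Co2, mt-Nd4l and mt-Co3 had counts close to those of the genes they repeat, whereas those of mt-Nd3, mt-Nd4 and mt-Co1 had far fewer. mt-Atp6 had 0.666 to 0.844 counts per count on Gm10925, mt-Co2 had 0.705 to 0.908 per count on Gm28661 and mt-Nd4l had 1.02 to 1.83 per count on Gm10222, all pairs with no base difference. mt-Nd3, whose pair differs at 1 base, had 5.49 to 11.3 counts per count on Gm28438. mt-Nd4 had 147 to 283 per count on Gm28439, which repeats its first 876 bases without a difference. The ratio of mt-Nd4 to Gm28439 was 283, 250 and 260 in young PBS 1, 2 and 3, 147, 176 and 154 in old PBS 2, 3 and 4, and 206, 245 and 241 in old rMETRNL 1, 2 and 3, so that the old PBS libraries lay below all others. These ratios were looked at after their values were seen and were not tested.

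A pair of library values stood apart among these genes. mt-Co3, the third large subunit of complex IV, had 2631 counts in old rMETRNL 1 against 617 on its identical copy Gm28437, a ratio of 4.26, whereas the ratio was 1.03 to 1.29 in the other 8 libraries. In CPM, mt-Co3 was 62.4, 51.9 and 41.2 in young PBS, 99.5, 37.9 and 126 in old PBS, and 141, 32.9 and 55.3 in old rMETRNL. The highest value of the gene thus came from the library in which the mitochondrial genes together held the smallest share of counts. Gm29216 had 1504 counts in old PBS 3 and 384 to 1288 in the others, and mt-Co1 there had 297 counts per Gm29216 count against 706 to 1024 elsewhere.

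**Figure D2:**
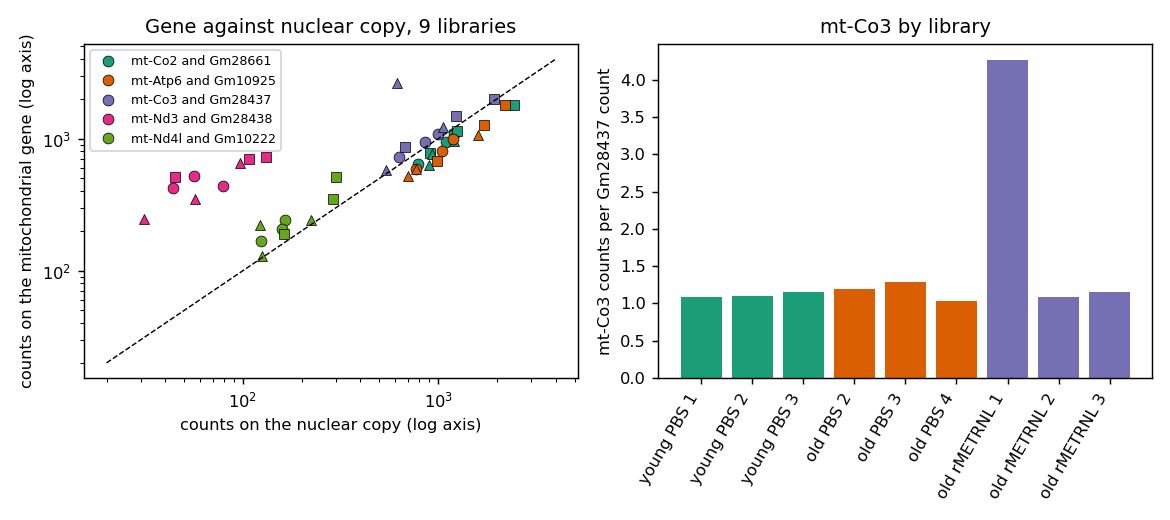
Left: counts on 5 mitochondrial genes against counts on their chromosome 1 copies (both log axes), with colours for the pair, circles for young PBS, squares for old PBS, triangles for old rMETRNL and a dashed line of equal counts. Right: mt-Co3 counts per Gm28437 count in each library, where old rMETRNL 1 stands at 4.26 and the others between 1.03 and 1.29.

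Of the rRNAs of the mitochondrial ribosome, mt-Rnr1 was at 1395 CPM per kilobase and mt-Rnr2 at 1334, below the 7 abundant protein genes. Together the rRNAs took 0.250% to 0.446% of all counts. In living cells these rRNAs exceed the mRNAs, and how far the library preparation removes them is not given in the sources used here, so their level against the mRNAs is not a level in the tissue.

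The tRNAs were sparse. They held 6336 to 12155 counts per library, 0.0322% to 0.0632% of the total, and 3 of them made up most of these. mt-Tp, mt-Tn and mt-Tc, the carriers of proline, asparagine and cysteine, averaged 2374, 2053 and 1516 CPM per kilobase. All 3 are encoded on the minus strand, and their genes are short enough to be read whole, so they are shown with the anticodon in capitals, as found by a script between 5 paired bases on each side (chrM:15356-15422, chrM:5089-5159 and chrM:5192-5257 in GRCm38).
mt-Tp: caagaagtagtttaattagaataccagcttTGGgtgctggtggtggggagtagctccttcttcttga
mt-Tn: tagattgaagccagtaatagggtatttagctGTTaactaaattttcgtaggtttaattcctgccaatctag
mt-Tc: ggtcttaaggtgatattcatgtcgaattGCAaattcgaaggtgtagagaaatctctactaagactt
mt-Te, the glutamate tRNA next to mt-Nd6, was the fourth at 385 CPM per kilobase. At the other end, mt-Td and mt-Tk had 0 counts in all 9 libraries, which allows up to 0.131 to 0.202 CPM, and mt-Tf, mt-Tv, mt-Ts1 and mt-Tt never passed 3 counts. These limits cover counting error only. Libraries made from longer RNA hold few mature tRNAs, so tRNA counts may come from longer precursors, which the counts cannot tell apart.

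The mitochondrial genes took a large and uneven part of the libraries. Their share of all counts was 8.005%, 7.30% and 6.16% in young PBS 1, 2 and 3. It was 10.96%, 5.85% and 12.8% in old PBS 2, 3 and 4. It was 5.69%, 5.88% and 7.97% in old rMETRNL 1, 2 and 3. Old PBS 2 and old PBS 4 lay above all other libraries, and old PBS 3 lay within the range of the old rMETRNL group. The means were 7.15% ± 0.931 in young PBS, 9.88% ± 3.61 in old PBS and 6.51% ± 1.27 in old rMETRNL (SD, n = 3 libraries each).

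None of these differences passed a test. Old PBS exceeded young PBS by 2.72 percentage points with p = 0.4, old rMETRNL differed from old PBS by -3.37 points with p = 0.3, and from young PBS by -0.643 points with p = 0.5 (two-sided exact permutation tests over 3 against 3 libraries, which cannot give a p below 0.1). The groups overlapped in all 3 comparisons. Without old PBS 3 the difference from young PBS was 4.74 points and that of old rMETRNL from old PBS was -5.38 points, whereas without old PBS 4 they were 1.25 and -1.89 points.

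Genes of mature muscle fibres were also uneven within old PBS. The summed level of the 10 mature fibre genes was 144203, 132455 and 120866 CPM in young PBS, 144085, 90019 and 161052 in old PBS, and 118896, 119423 and 129416 in old rMETRNL. Old PBS 4 was highest and old PBS 3 lowest among the 9 libraries. Genes of newly formed fibres ran the other way within old PBS, with a summed level of 1282, 4865 and 635 CPM in old PBS 2, 3 and 4 against 1649 to 2279 in the other groups. Genes of fibro-adipogenic cells, the connective tissue progenitors of muscle, summed to 3923 to 7500 CPM in old PBS, 9368 to 12810 in young PBS and 8555 to 14146 in old rMETRNL. Most of this sum was the collagen genes Col3a1 and Col1a1, with log2 fold changes of -1.01 and -1.19 in old PBS against young PBS. Of the other genes listed, Dpt had -0.50 and Pdgfra -0.21, whereas Dcn had 0.11 and Ly6a 0.15. The means of the mature fibre sum did not separate the groups (exact permutation p = 0.9 for old PBS against young PBS, 0.7 for old rMETRNL against old PBS and 0.2 for old rMETRNL against young PBS). Other gene lists were uneven within old PBS too. In old PBS 2, 3 and 4 the brain genes summed to 224, 79.4 and 273 CPM and the blood genes to 250, 128 and 981. Blood genes also reached 843 CPM in old rMETRNL 2. Macrophage genes summed to 1171, 1703 and 1285 CPM and endothelial genes to 269, 317 and 194, highest in old PBS 3. The part of the fibre content or of these other genes in the mitochondrial share was not tested. In bulk samples fewer cells of a type and less RNA per cell cannot be told apart.

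**Figure D3:**
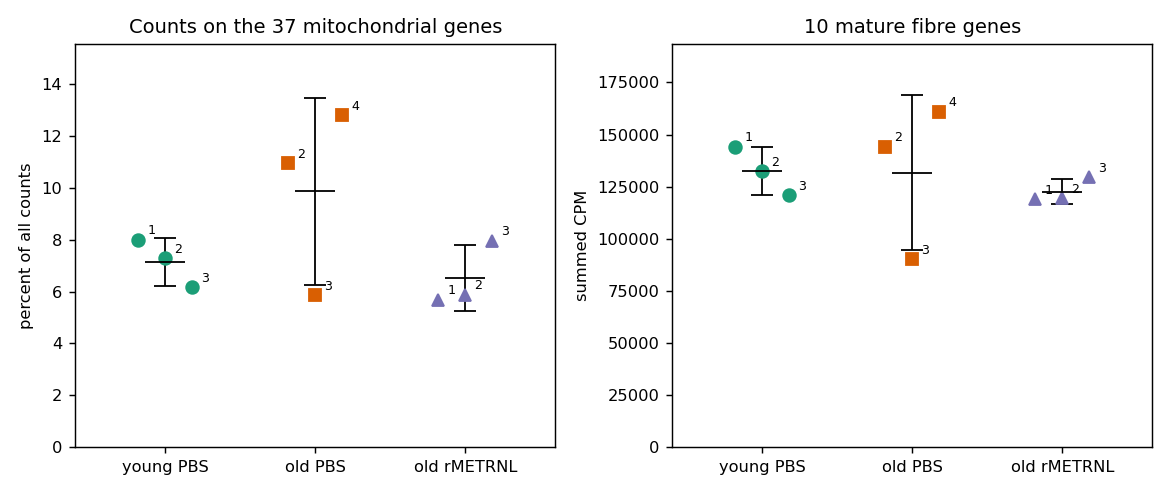
Left: percent of all counts on the 37 mitochondrial genes, a point per library numbered as in the labels, with the mean and SD of each group (n = 3). Right: summed CPM of 10 mature fibre genes in the same libraries. Old PBS 4 is the highest point in both panels, at 12.8% and 161052 CPM, and old PBS 3 stands at 5.85% and 90019 CPM.

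Each gene was then tested with edgeR's quasi-likelihood test on the 6 libraries of a pair, with p-values adjusted by the Benjamini-Hochberg method over all genes tested and a threshold of 0.05. Of the 37 genes, 27 passed the filter on low counts in each comparison: the 13 protein genes, both rRNAs and 12 of 22 tRNAs. These 27 are not all members, since the other 10 tRNAs were too low to be tested.

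In old PBS against young PBS, 0 of 27 genes were called by edgeR, beside 0.0643% of all genes tested. All 27 log2 fold changes were above 0, from 0.05 to 0.92 with a median of 0.58, where the median over all genes was 0.01. None had an unadjusted p under 0.05, and the smallest adjusted p was 0.886, that of mt-Atp8 in edgeR. The groups overlapped for all 27 genes, while they did not overlap for 10.5% of all genes. mt-Co1 was at 30412, 27715 and 22188 CPM in young PBS and at 43915, 19500 and 57151 in old PBS, a log2 fold change of 0.58 with a standard error of 0.48. mt-Nd1, a core subunit of complex I, was at 10096, 8491 and 6370 CPM in young PBS and at 14277, 5397 and 19198 in old PBS (log2 fold change 0.64, standard error 0.48). The same 2 old PBS libraries were above, and the same 1 below, all 3 young PBS libraries.

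In old rMETRNL against old PBS, 0 of 27 genes were called by edgeR, beside 0.108% of all genes. All 27 log2 fold changes were below 0, from -1.47 to -0.04 with a median of -0.87, where the median over all genes was -0.01. An unadjusted p under 0.05 was reached by 9 of 27 genes, beside 8.07% of all genes, and the smallest adjusted p was 0.409 in edgeR. The 9 were mt-Atp6, mt-Co2, mt-Nd3, mt-Nd4l and the tRNAs mt-Te, mt-Ts2, mt-Tl2, mt-Th and mt-Ty. The protein genes among the 9 are all low genes with nuclear copies, whose levels are uncertain. The groups did not overlap for 2 of 27 genes, mt-Tl2 and mt-Ts2, beside 12.7% of all genes. The 27 genes share their libraries and are not independent, and this comparison and the preceding one use the same old PBS libraries.

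mt-Te had the lowest log2 fold change of the comparison. It was at 26.97, 27.3 and 19.3 CPM in young PBS, 44.2, 14.6 and 62.8 in old PBS and 13.2, 10.5 and 19.95 in old rMETRNL. Its log2 fold change in old rMETRNL against old PBS was -1.47 with a standard error of 0.46 (unadjusted p = 0.0115 and adjusted p = 0.409, edgeR), and the old PBS range reached into that of old rMETRNL. mt-Cytb, at 19880, 8406 and 25936 CPM in old PBS and at 9122, 9420 and 13667 in old rMETRNL, had a log2 fold change of -0.76 with a standard error of 0.46. Among the low genes with nuclear copies, mt-Atp6 had -1.06 (standard error 0.42) and mt-Co3 had -0.20 (standard error 0.55). Without old rMETRNL 1, the library in which mt-Co3 stood apart, mt-Co3 had -0.995.

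In old rMETRNL against young PBS, 0 of 27 genes were called by edgeR, beside 0% of all genes. The log2 fold changes were above 0 for 6 genes and below 0 for 21, from -0.76 to 0.56 with a median of -0.23. An unadjusted p under 0.05 was reached by mt-Te, mt-Ts2 and mt-Tc, beside 2.41% of all genes, and every adjusted p was 0.9996 in edgeR. The groups did not overlap for 2 of 27 genes, mt-Tl1 and mt-Ts2, beside 6.9% of all genes. mt-Te had a log2 fold change of -0.75 (standard error 0.22). mt-Co3 had the highest at 0.56 (standard error 0.40), and without old rMETRNL 1 it had -0.23. mt-Co1 had -0.12 (standard error 0.22), mt-Cytb -0.15 (standard error 0.21) and mt-Nd1 -0.23 (standard error 0.22).

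**Figure D4:**
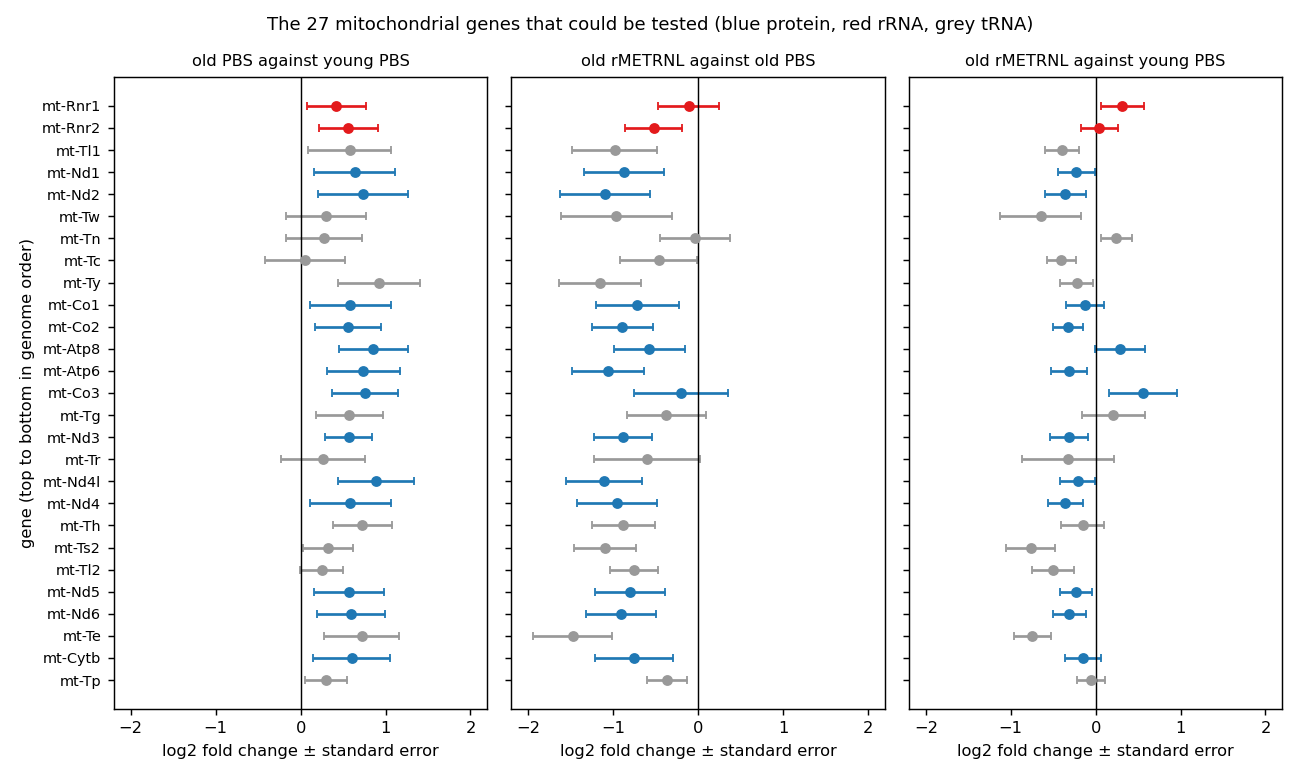
The log2 fold change of the 27 mitochondrial genes that could be tested (points) with its standard error from edgeR (bars) in the 3 comparisons, in genome order. All 27 points lie above 0 on the left, all lie below 0 in the middle, and 6 lie above and 21 below 0 on the right. No gene was called.

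The calls depended on old PBS 3. Without that library, edgeR called 5 of 30 tested genes in old PBS against young PBS, beside 2.52% of all genes, and all 5 were higher in old PBS: mt-Atp6, mt-Co3, mt-Nd3, mt-Nd4l and mt-Te. Their log2 fold changes were 0.84 to 1.28. The protein genes among them are all low genes with nuclear copies, whose levels are uncertain, and none of the abundant protein genes was called. For old rMETRNL against old PBS without old PBS 3, edgeR called 18 of 29 tested genes, beside 9.76% of all genes, and all 18 were lower in old rMETRNL. They were 10 protein genes, all but mt-Co1, mt-Co3 and mt-Atp8, and 8 tRNAs. The tRNAs include mt-Tm and mt-Tq, which were too low to be tested in the fit on all 6 libraries. mt-Tq had 18 and 12 counts in old PBS 2 and 4 and 1 to 3 in old rMETRNL. mt-Tm had 22 and 29 against 4 to 5. Both passed the filter only through old PBS, so their direction was fixed by the filter and is no support. In the fit without old PBS 3, mt-Nd2, a complex I subunit, fell by 1.51 on the log2 scale, and mt-Te fell by 1.87. Leaving out any other library gave 0 calls by edgeR for these genes in each comparison. The median log2 fold change of the tested genes in old PBS against young PBS was 0.92 without old PBS 3 and 0.25 without old PBS 4. For old rMETRNL against old PBS it was -1.16 without old PBS 3 and -0.48 without old PBS 4. For old rMETRNL against young PBS it was -0.11 without old rMETRNL 2, -0.40 without old rMETRNL 3, -0.15 without young PBS 1 and -0.37 without young PBS 3.

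Some other settings also changed the calls. With no filter on low counts edgeR called 7 of 35 genes in old rMETRNL against old PBS, beside 2.55% of all genes, all lower in old rMETRNL: mt-Atp6, mt-Co2, mt-Nd3, mt-Nd4l, mt-Te, mt-Tl1 and mt-Ty. The protein genes among the 7 are again low genes with nuclear copies, whose levels are uncertain. The fit with no filter called 2 of 34 genes in old rMETRNL against young PBS, beside 0.467% of all genes, with mt-Co3 higher and mt-Te lower. The higher mean of mt-Co3 comes from old rMETRNL 1, at 141 CPM. The other old rMETRNL libraries were at 32.9 and 55.3 and young PBS at 41.2 to 62.4. Its log2 fold change was 0.56 with and without the filter, with standard errors of 0.40 and 0.13. DESeq2 called 1 gene in old rMETRNL against old PBS, beside 1.22% of all genes: mt-Te, with a log2 fold change of -1.49 and a DESeq2 adjusted p of 0.0326. In old PBS against young PBS DESeq2 called 0 of 34 genes, beside 0.92% of all genes, and in old rMETRNL against young PBS 0 of 34, beside 0%.

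Most of the variation of the abundant protein genes was common to them. Over the 9 libraries the coefficient of variation (SD as a percent of the mean) of the CPM was 41.4% for mt-Co1, 43.1% for mt-Cytb and 48.4% for mt-Nd1. As a share of the summed protein gene counts, the same genes varied by 3.33%, 2.23% and 4.25%. These genes are a large part of that sum, which in part holds their shares steady, and the rRNAs and tRNAs are outside it. mt-Nd2 varied by 59.2% in CPM and by 13.8% as a share, and mt-Co3 by 55.6% in CPM and 68.7% as a share. The rRNAs and several tRNAs kept more of their variation, with 33.5% in CPM and 24.5% per protein gene count for mt-Rnr1, 35.2% and 33.5% for mt-Tn, and 23.5% and 23.9% for mt-Tp. Shares and ratios within the genome were compared next.

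The share of complex I genes among the protein gene counts was 43.5%, 43.2% and 42.0% in young PBS, 44.1%, 40.9% and 44.0% in old PBS and 40.6%, 41.2% and 40.0% in old rMETRNL. Old rMETRNL lay below young PBS without overlap (difference -2.33 percentage points, exact permutation p = 0.1, the smallest this design can give), and differed from old PBS by -2.43 points with overlap at old PBS 3 (exact permutation p = 0.2). The share was also taken over the protein genes with under 10% of windows shared, which leave out mt-Co1 and mt-Nd4. Complex I then held 64.7% to 65.1% in old rMETRNL, 65.5% to 67.97% in old PBS and 65.9% to 67.6% in young PBS. Old rMETRNL overlapped neither group, but nearly all other counts of this set are mt-Cytb, so the value mirrors that gene. With counts per kilobase over all protein genes, complex I held 45.5% to 46.4% in old rMETRNL and 46.1% to 49.7% in old PBS, with overlap. Young PBS held 47.2% to 49.1% by that measure. Complex III, which is mt-Cytb alone, held 17.8%, 16.9% and 17.7% in young PBS, 17.3%, 17.7% and 17.4% in old PBS and 18.2%, 18.1% and 17.9% in old rMETRNL, so that old rMETRNL was above both other groups (exact permutation p = 0.1 each). Complex IV averaged 39.6%, 39.4% and 41.3%, almost all of it mt-Co1, since mt-Co2 and mt-Co3 are among the low genes. It held 41.2%, 40.7% and 42.1% in old rMETRNL, above the 38.6%, 39.8% and 40.3% of young PBS (exact permutation p = 0.1). Old rMETRNL overlapped old PBS (exact permutation p = 0.3). The shares add up to a whole, so a lower share of complex I and a higher share of mt-Co1 cannot be told apart. Complex V averaged 0.0690%, 0.0745% and 0.0652%, which rests on the uncertain genes mt-Atp6 and mt-Atp8.

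The rRNAs were then set against the protein genes. There were 4.89, 3.56 and 4.33 rRNA counts per 100 protein gene counts in young PBS, 3.94, 5.43 and 3.62 in old PBS and 5.62, 4.90 and 5.71 in old rMETRNL. Old PBS 3 was again the library of its group that lay within the old rMETRNL range. Old rMETRNL exceeded young PBS by 1.15 (exact permutation p = 0.1), with its lowest library just above the highest of young PBS, and exceeded old PBS by 1.08 with overlap (exact permutation p = 0.2).

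A further set of ratios was chosen after their values were seen, and is a description of these libraries. mt-Rnr1 counts per 100 mt-Rnr2 counts, the small against the large ribosomal RNA, were 62.8, 61.9 and 60.2 in young PBS, 47.6, 57.5 and 63.1 in old PBS and 71.3, 67.8 and 80.9 in old rMETRNL. All 3 old rMETRNL libraries were above the other 6. mt-Nd6 is the one protein gene encoded on the minus strand. Its counts per 100 mt-Cytb counts were 17.5, 18.2 and 17.9 in young PBS, 18.2, 17.9 and 17.4 in old PBS and 15.6, 16.4 and 15.9 in old rMETRNL. All 3 old rMETRNL libraries were below the other 6, old PBS 3 included. The mean was 17.9 ± 0.317 in young PBS, 17.8 ± 0.354 in old PBS and 16.0 ± 0.441 in old rMETRNL (SD, n = 3).

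Of the tRNAs, mt-Te and mt-Tn were set against the protein genes in the same way. mt-Te counts per 10000 protein gene counts were 3.41, 3.91 and 3.49 in young PBS, 3.86, 3.09 and 4.21 in old PBS and 2.63, 2.02 and 2.61 in old rMETRNL, with the old rMETRNL libraries below the other 6. mt-Tn counts per 10000 were 21.4, 17.5 and 17.0 in young PBS, 14.7, 12.6 and 16.1 in old PBS and 33.1, 28.3 and 18.8 in old rMETRNL. The old PBS libraries were the lowest of the 9, and old rMETRNL overlapped young PBS. The other tRNAs examined overlapped between old rMETRNL and old PBS, with 21.7 to 29.4 against 15.1 to 29.6 per 10000 for mt-Tp, 12.3 to 16.3 against 7.45 to 13.2 for mt-Tc and 0.811 to 1.18 against 0.728 to 1.59 for mt-Ty. The 4 ratios mt-Rnr1 to mt-Rnr2, mt-Nd6 to mt-Cytb, mt-Te and mt-Tn did not overlap between old rMETRNL and old PBS. Each gave an exact permutation p of 0.1, and 0.254 after Benjamini-Hochberg adjustment over 33 tests of ratios, shares and sums. Groups of 3 without overlap always give this p, and the ratios were picked with their values known. These p-values therefore cannot decide whether the groups differ. The adjustment also leaves out mt-Tp, mt-Tc and mt-Ty, which were examined without a test. Whether reads were counted by strand is not given in the sources used here. Without strand, reads of mt-Nd6, mt-Te and mt-Tn cannot be told apart from antisense RNA at the same place.

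**Figure D5:**
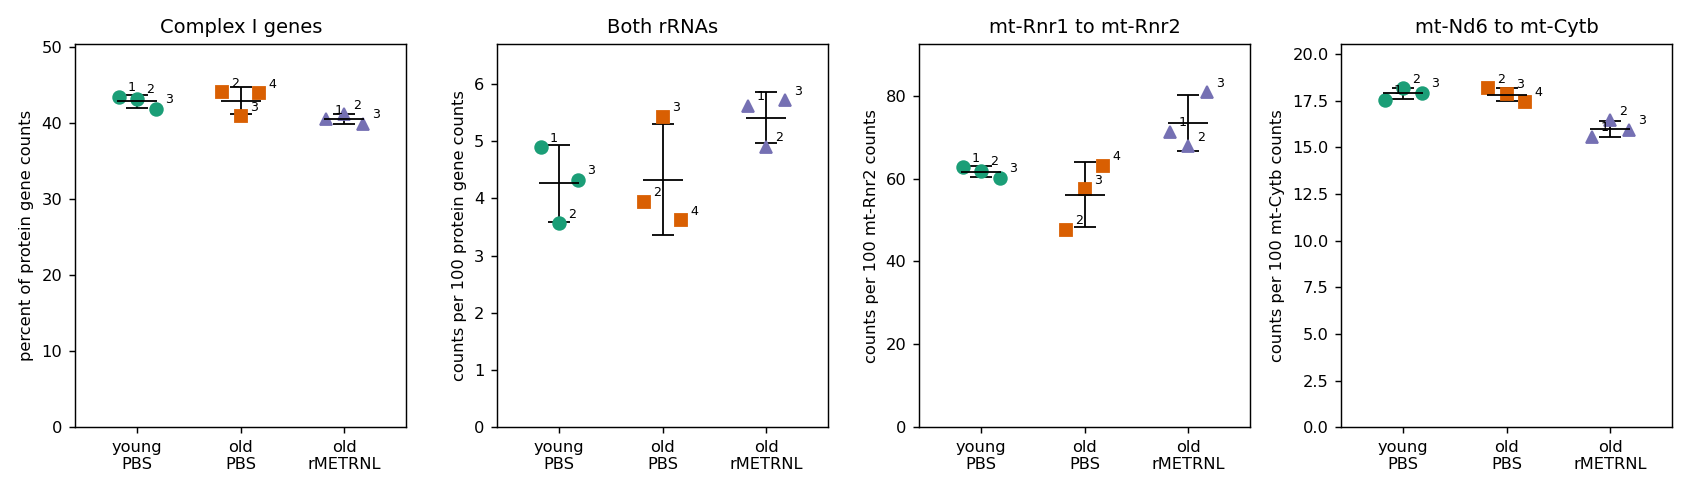
Measures within the mitochondrial genome, a point per library numbered as in the labels, with the mean and SD of each group (n = 3): complex I share of protein gene counts in percent, rRNA counts per 100 protein gene counts, mt-Rnr1 per 100 mt-Rnr2 counts and mt-Nd6 per 100 mt-Cytb counts. In the last panel the old rMETRNL points lie between 15.6 and 16.4 and the other 6 between 17.4 and 18.2.

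The nuclear genes that copy, process and maintain the mitochondrial genome were described from a list of 43 genes, of which 42 were found and tested. edgeR and DESeq2 each called 0 of 42 in each of the 3 comparisons, and 0, 1 and 1 had an unadjusted p under 0.05, beside 5.91%, 8.07% and 2.41% of all genes. Their log2 fold changes had medians of 0.09 in old PBS against young PBS, -0.10 in old rMETRNL against old PBS and -0.04 in old rMETRNL against young PBS, where the 27 mitochondrial genes had 0.58, -0.87 and -0.23. In the first comparison 31 of the 42 were higher and 11 lower, and in the second 11 were higher and 31 lower.

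By role, Polrmt, the mitochondrial RNA polymerase, was at 28.0, 28.7 and 28.0 CPM in young PBS, 26.4, 22.8 and 27.2 in old PBS and 24.8, 27.3 and 26.1 in old rMETRNL. Young PBS lay above all other libraries, and the log2 fold change of old PBS against young PBS was -0.15 (standard error 0.14, adjusted p = 0.994 in edgeR). Tfam, which packages the DNA and starts transcription, was at 57.5, 49.9 and 44.6 CPM in young PBS, 52.8, 45.2 and 69.4 in old PBS and 51.3, 50.1 and 54.1 in old rMETRNL. Tfb2m, the second initiation factor, was at 45.8, 38.4 and 34.5 CPM in young PBS, 52.0, 29.2 and 60.2 in old PBS and 35.2, 30.99 and 40.0 in old rMETRNL. The old PBS libraries 2 and 4 were the highest of the 9 in Tfb2m and old PBS 3 the lowest. Its log2 fold change in old rMETRNL against old PBS was -0.42 (standard error 0.26, adjusted p = 0.713 in edgeR).

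Lrpprc, which stabilises mitochondrial mRNAs, was at 137, 125 and 120 CPM in young PBS, 169, 117 and 154 in old PBS and 116, 125 and 130 in old rMETRNL. Ppargc1a, a coactivator of genes for mitochondria, was at 38.4, 37.5 and 34.5 CPM in young PBS, 51.1, 31.2 and 42.1 in old PBS and 32.9, 30.7 and 38.3 in old rMETRNL. Both overlapped between all groups. Without old PBS 3, edgeR called 3 of 42 list genes lower in old rMETRNL than in old PBS, a smaller share than the 9.76% called over all genes in that fit: Tfb2m, Fastkd2, which binds mitochondrial RNA, and Top1mt, the mitochondrial topoisomerase.

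The nuclear partners of the mitochondrial subunits had median log2 fold changes nearer 0 than the mitochondrial genes. For 20 nuclear genes of complexes I, III, IV and V, the median log2 fold changes were 0.09, -0.12 and -0.04 in the 3 comparisons, and edgeR called 0 of 20 in each, with 0 at an unadjusted p under 0.05. All 7 of the complex I partners were above 0 in old PBS against young PBS and below 0 in old rMETRNL against old PBS, with medians of 0.10 and -0.16. Over all 20 partners, 17 were above 0 in the first of these and 17 below 0 in the second. These 2 comparisons share the old PBS libraries, and the partners were not tested against the mitochondrial genes.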

How the data were processed

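The deposited table holds raw counts per gene for 9 libraries. Per the labels, the submitters' processing notes name STAR, featureCounts and the mm9 build, without versions. Per the study's methods, 1 µg of RNA entered a NEBNext Ultra kit and paired-end reads were made on an Illumina NovaSeq. The strand setting and the treatment of reads with several matches are not given in the sources used here. Gene positions and sequences are those of the GENCODE GRCm38 annotation, matched by Ensembl gene ID and not converted from mm9.

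Groups came from the sample titles. Each pair of groups was fitted on its 6 libraries with edgeR 4.0.16 (R 4.3.3, filterByExpr, TMM, quasi-likelihood test), with no replicate block, and called at an adjusted p under 0.05. DESeq2 1.42.0 was an alternative. CPM use TMM-scaled library sizes. Shares and ratios were compared by two-sided exact permutation tests over libraries (scipy 1.17.1; 20 splits, smallest p 0.1). A 50-base window was called shared when it occurred in any nuclear transcript on either strand. Only the edgeR and DESeq2 fits were tested on simulated data, drawn from the young PBS and old rMETRNL libraries. Old PBS was not simulated, and the window search and the permutation tests were not tested in this way.

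Named genes were all protein genes and rRNAs, the 3 tRNAs of highest CPM, any tRNA called, and 5 nuclear genes. mt-Te, other tRNAs named for a p or for groups without overlap, the nuclear copies and Fastkd2 and Top1mt were named after their values were seen. Members and lists were chosen with earlier results of these data known. Of the list of 43 nuclear genes, 1 symbol was not matched.

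Other settings tried were no filter, a minimum of 10 counts in every library, other scalings, all 9 libraries in a fit, a replicate block and leaving out each library. Same-numbered libraries did not deviate together in all pairs (r from -0.316 to 0.412), so the numbers were not taken to pair samples.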

Additional observations from a re-analysis of the deposited data

How the results depend on the processing

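Depth limits the tRNAs more than the protein genes, and 3 libraries a group limit every test. Over all settings, 142 values of the main comparisons kept their direction and side of the threshold, 6 passed the threshold only under an alternative and 5 changed direction. Of the single-gene values 879 kept both, 26 passed the threshold only under an alternative, 31 changed direction and 2, the levels of mt-Nd4 and mt-Co1 per length, moved beyond the spread between libraries. The cause of these changes was not tested, except that leaving out a library uses fewer samples. DESeq2 called 1 mitochondrial gene in old rMETRNL against old PBS and the fit with no filter called 7, where edgeR called 0. The fit with no filter called 2 in old rMETRNL against young PBS.

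Leaving out each library in turn, calls ranged from 0 to 5 in old PBS against young PBS and from 0 to 18 in old rMETRNL against old PBS, where 3 nuclear list genes were also called, against 0 otherwise. The highest counts came without old PBS 3, and the 18 include mt-Tm and mt-Tq, which passed the filter there only through old PBS. In old PBS against young PBS, the complex I share differed by -0.450 to 1.14 percentage points and the rRNA ratio by -0.481 to 0.422, so that both have no settled direction, nor have mt-Tn (-0.17 to 0.66 on the log2 scale), mt-Tc (-0.23 to 0.47), Tfam (-0.049 to 0.26) and Ppargc1a (-0.0065 to 0.33). In old rMETRNL against old PBS the same held for mt-Co3 (-0.995 to 0.16), mt-Rnr1 (-0.44 to 0.19), mt-Tn (-0.43 to 0.40), Polrmt (-0.040 to 0.070) and Tfam (-0.24 to 0.067). In old rMETRNL against young PBS it held for mt-Co3 (-0.23 to 0.92), mt-Rnr1 (-0.015 to 0.58), mt-Rnr2 (-0.19 to 0.29), mt-Tp (-0.18 to 0.11), Tfam (-0.049 to 0.13) and Lrpprc (-0.085 to 0.0038).

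The replicate numbers did not pair the samples by the correlation of deviations. With a replicate block on the shared numbers, 0 mitochondrial genes were called in each comparison, and their median log2 fold changes were 0.24, -0.34 and -0.24. The block turned the direction of mt-Tn (-0.092) and mt-Tc (-0.34) in old PBS against young PBS, and of mt-Rnr1 (0.27), mt-Tn (0.53), mt-Tc (0.12) and Tfam (0.086) in old rMETRNL against old PBS, on the log2 scale. These comparisons share 2 numbers, so a library whose number has no partner adds nothing to the fitted difference. Over all genes the block called 11, 65 and 0 genes, where the fit without it called 10, 17 and 0 (edgeR; old PBS against young PBS, old rMETRNL against old PBS and old rMETRNL against young PBS).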
